A study of Homo sapiens with 12 samples.

Results

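The Wnt pathway was followed at the mRNA level in Rh30 cells, a human alveolar rhabdomyosarcoma line that carries the PAX3-FKHR fusion (also written PAX3-FOXO1), across parental cells, a control clone and a PAX3-FKHR knockdown clone. The 44 members were chosen by gene name, from ligands through receptors and antagonists to nuclear factors, out of 30238 gene names on the array. Each was read by its brightest probe, and all 44 had at least 1 of the 77 probes that carry their names. WT denotes untransfected parental Rh30 cells, grown without puromycin. CON denotes an Rh30 clone with a control non-targeting shRNA, and KD1 an Rh30 clone with an shRNA against PAX3-FKHR; both clones were transduced with a retroviral vector and kept in puromycin at 1 µg/mL. CON and KD1 are each 1 clone, so a difference between them can come from the shRNA or from the clone, and these cannot be told apart.

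Each Agilent array held a Cy3-labelled and a Cy5-labelled RNA, so that the measured quantity is a log2 ratio between 2 cultures. There were 12 arrays, for KD1 vs CON, KD1 vs WT and WT vs CON, each with 2 biological replicates and a dye-swap pair for each replicate. The 3 comparisons rest on 6 RNA extracts, so they share extracts and are given side by side only. A log2 ratio of 1 is a 2-fold difference, and below it is followed by the SD over the 2 replicates. The p-values rest on the spread between the replicates of these cultures alone, so they do not cover differences between independent clones.

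Wnt ligands are lipid-modified secreted proteins that bind Frizzled receptors together with the co-receptors LRP5 and LRP6. In the canonical branch, Dishevelled proteins then hold back a destruction complex of APC, axins and GSK3B, and beta-catenin accumulates and acts with LEF/TCF factors on target genes, among them the feedback inhibitor AXIN2. In skeletal muscle, Wnt signals take part in the specification of myogenic cells in the embryo and in regeneration.

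Between 71.1% and 73.6% of the Cy3 spots of an array were well above background. MYOD1, MYOG, MYF5, DES, CDH15, CHRNA1 and CHRND, which mark myoblasts and rhabdomyosarcoma, were well above background on all 8 readings of each culture. Of the 3 epithelial markers, EPCAM had a signal of 164 in WT replicate 2 and 3.41 to 3.93 in the other 5 extracts, CDH1 reached 18.1 in WT replicate 2 against 3.32 to 5.51 elsewhere, and the summed signal of the 3 was 187 in WT replicate 2 and 10.2 to 13.4 in the others. The endothelial marker VWF read 652 in KD1 replicate 2 and 50.7 to 119 in the other extracts. The immune marker PTPRC was not well above background in any culture. The part of these 2 libraries in the results below was not tested, and every replicate is therefore given by itself. The probe of PAX3 read -0.39 and -0.46 (log2 ratio) for KD1 against CON, and -0.45 and -0.33 against WT. That of FOXO1 read -0.26 and -0.58 against CON, and -0.79 and -0.41 against WT. Neither passed the test (limma adjusted p from 0.273 to 0.432), and both also measure the unrearranged genes.

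Of the 44 members, 34 were well above background on all 24 readings and 4 on none. In all, 33 could be tested in KD1 vs CON and 35 in each of the other comparisons, the rest being too dim on at least 1 array. In KD1 vs CON, AXIN2 and SFRP4 were lower in KD1 and no member was higher, beside 1.06% of all genes tested that were lower and 0.85% that were higher. In KD1 vs WT, WNT3 alone was lower and no member was higher, beside 0.835% and 0.336% of all genes. In WT vs CON, AXIN2 was lower and DVL1 and FZD6 were higher in WT, beside 0.659% and 0.826% of all genes. No member passed in both KD1 comparisons. An unadjusted limma p under 0.05 was found for 11 of 33 members in KD1 vs CON, beside 17.3% of all genes. It was found for 10 of 35 in KD1 vs WT (17.3% of all genes) and 10 of 35 in WT vs CON (16.6%). Whether the members as a list depart from all genes was not tested. The study's own selection rule, at least 2-fold in both KD1 comparisons with the same direction on all 8 arrays, took none of the 33 members above the limit of the negative controls in both, while it took 0.935% of all genes as lower and 0.585% as higher. As applied here, these shares are 147 and 92 of 15715 genes. Both directions together exceed the number of genes the paper reported, so its published count is not reproduced. Whether the genes it listed are among them was not examined. The median log2 ratio of the tested members was -0.13 for KD1 against CON, -0.23 for KD1 against WT and 0.09 for WT against CON, where the medians over all genes tested were -0.015, 0.005 and -0.03. The replicates gave medians of -0.08 and -0.11 for KD1 against CON, but of opposite sign for KD1 against WT (-0.48 and 0.09, with 27 and 15 of 35 members below 0) and for WT against CON (0.44 and -0.17). Both KD1 signals lay below both CON signals for 10 of 33 members and above for 10, beside 25.2% and 23% of all genes. Set against WT, the KD1 signals lay below for 13 of 35 and above for 5, beside 21% and 22.2%. Both WT signals lay below both CON signals for 8 of 35 and above for 10, beside 26.9% and 21.3%. Signals of 2 cultures that do not overlap, as given below for single genes, are therefore common. None of the 6 calls held with normexp and loess, and with a replicate block on extract levels AXIN2 for KD1 against CON alone held.

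**Figure D1:**
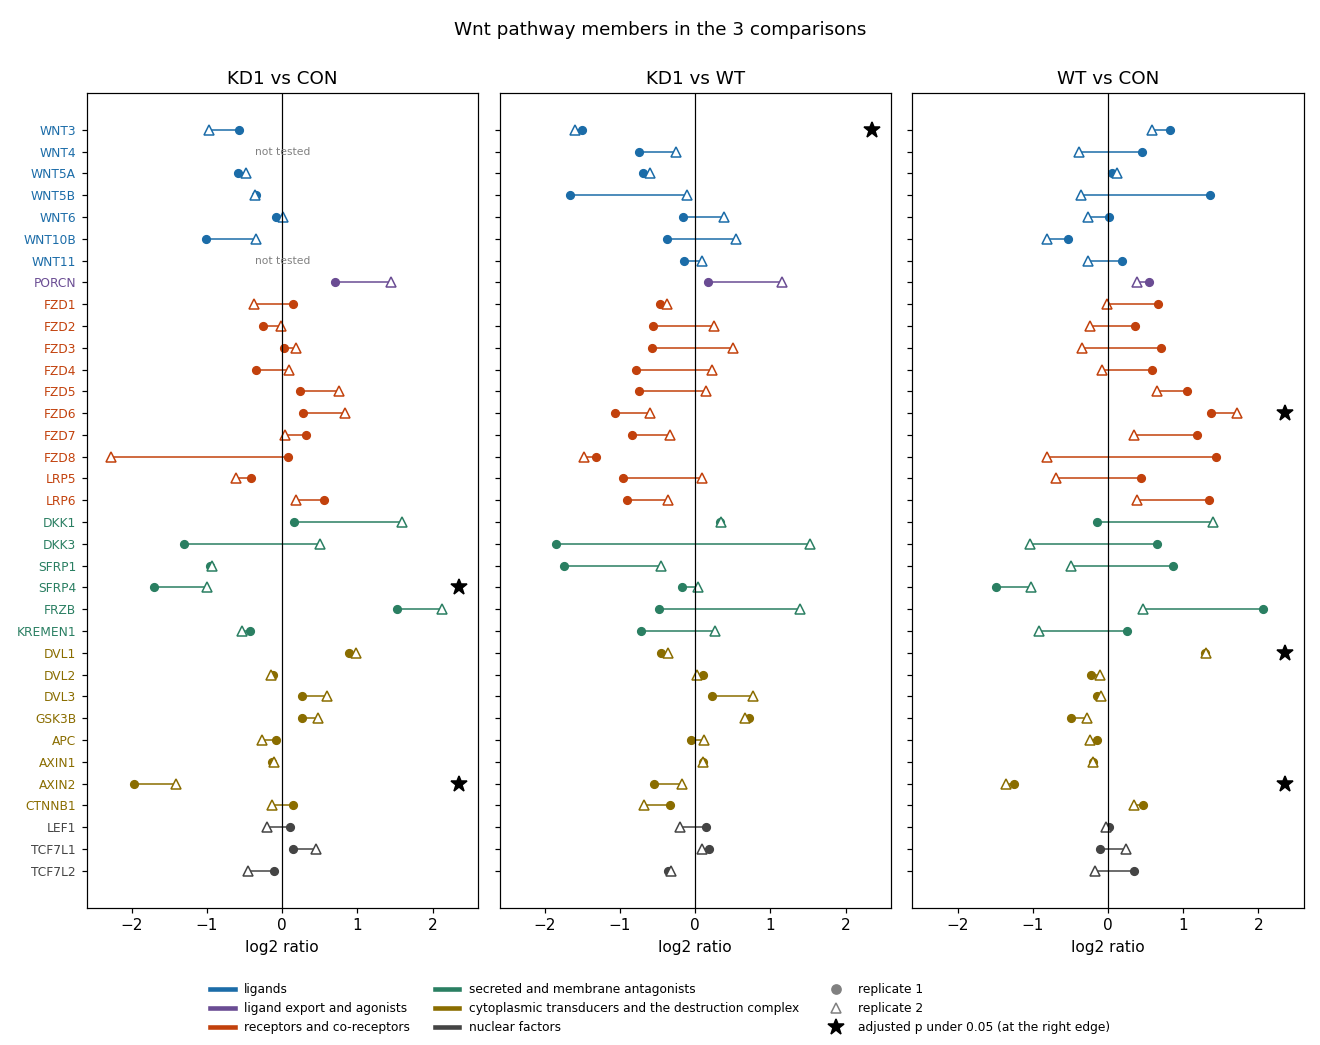
Log2 ratio of each tested member (rows, coloured by role) in KD1 vs CON, KD1 vs WT and WT vs CON; circles are replicate 1, open triangles replicate 2, and a star at the right edge marks a limma adjusted p under 0.05. AXIN2 lies left of 0 in both comparisons with CON, and the receptors in KD1 vs WT have every circle left of 0.

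AXIN2, the axin that canonical Wnt signalling itself induces, was highest in CON. Its signal was 1230 and 950 in the CON extracts, 509 and 385 in WT and 347 and 354 in KD1, so that both CON values lay above all 4 others. In KD1 vs CON its log2 ratios were -1.97 and -1.41 in the replicates, a mean of -1.69 ± 0.39 (SD, n = 2), or 3.22-fold lower in KD1 (limma adjusted p = 0.0143). In WT vs CON they were -1.25 and -1.35, a mean of -1.30 ± 0.07 (SD, n = 2) and 2.47-fold lower in WT (limma adjusted p = 0.0448). In KD1 vs WT they were -0.55 and -0.17, which did not pass (limma adjusted p = 0.450; 95% interval of the difference -0.87 to 0.15). The AXIN2 probe lies at chr17:60955851-60955910 on build NCBI36, on the minus strand. A second AXIN2 probe also passed in KD1 vs CON (-1.92 and -1.21, limma adjusted p = 0.0271) and in WT vs CON (-1.36 and -1.66, limma adjusted p = 0.0405). A further probe was too dim for the test in KD1 vs CON, where it read -1.28 and -0.90, and missed the threshold in WT vs CON with -0.94 and -0.97 (limma adjusted p = 0.0796). The lower AXIN2 in KD1 than in CON was kept under 11 of 14 other settings of the analysis. It was lost with normexp and loess (log2 ratio -1.26, limma adjusted p = 0.0917), without CON replicate 1 (-1.41, limma adjusted p = 0.201) and without CON replicate 2 (-1.97, limma adjusted p = 0.0586). The lower AXIN2 in WT than in CON passed under 5 of 14, and was lost with the replicate block (limma adjusted p = 0.0778) and without CON replicate 1, CON replicate 2, WT replicate 1 or WT replicate 2 (limma adjusted p = 0.369, 0.394, 0.171 and 0.134, with log2 ratios of -1.35 or -1.25).

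MYOG, the myogenic factor of differentiating myoblasts, was also highest in CON, with signals of 3350 and 3970, against 813 and 1790 in WT and 1310 and 2430 in KD1. Its log2 ratios were -1.35 and -0.92 in KD1 vs CON (limma adjusted p = 0.0508) and -1.96 and -1.49 in WT vs CON (limma adjusted p = 0.0185). MYF5 was instead highest in WT, with 8860 and 8270, against 2520 and 3680 in CON and 3380 and 1530 in KD1. In KD1 vs CON, DES read 0.19 and 0.81 and CHRND 0.21 and 0.68, while CDH15 and CHRNA1 had means of -0.12 and -0.07. MYOD1 read 22600 to 25900 in all extracts, and the summed signal of the 7 muscle markers on the array overlapped between the cultures (138000 and 151000 in WT, 134000 and 159000 in CON, 139000 and 208000 in KD1). The part of MYOG-positive cells in the difference of AXIN2 was not tested, and fewer cells with a transcript cannot be told apart from less of it per cell in these bulk RNAs.

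**Figure D2:**
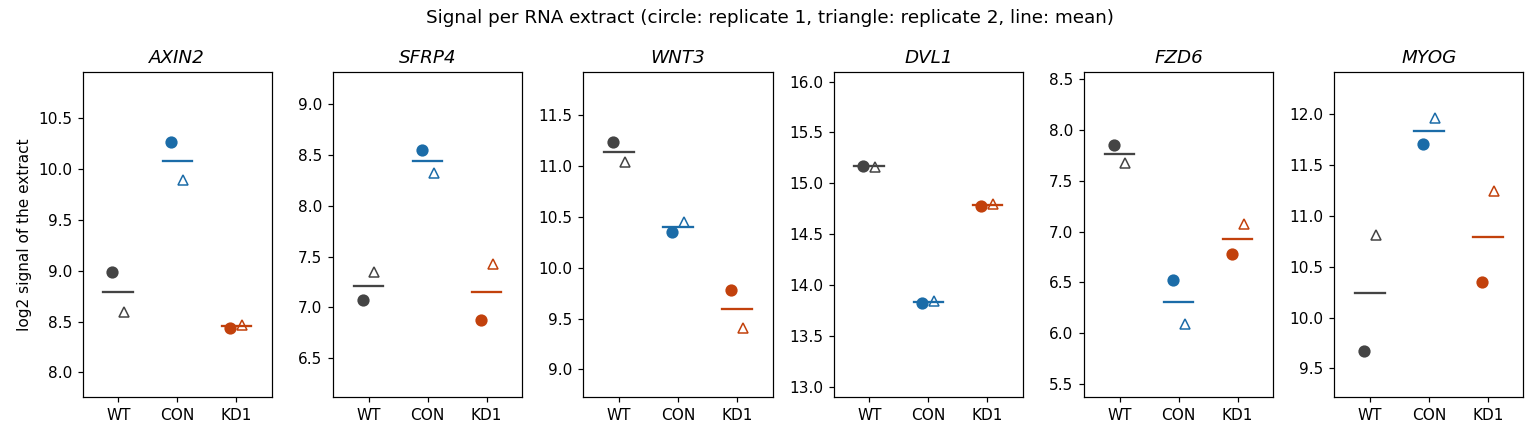
Log2 signal of 5 members and of MYOG in the 6 RNA extracts (circle replicate 1, open triangle replicate 2, line mean of the 2); each panel spans the same range of log2 units at its own level, so panels are not compared with each other. AXIN2, SFRP4 and MYOG are highest in both CON extracts, DVL1 and FZD6 lowest there, and WNT3 is lowest in both KD1 extracts.

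Among the other genes of the destruction complex and its regulators, none passed in a comparison with KD1. APC, the scaffold whose loss stabilizes beta-catenin, read 114 to 144 in all extracts and differed by -0.18 ± 0.13 (SD, n = 2) in KD1 vs CON. AXIN1, the constitutive axin, differed by -0.13 ± 0.02 there and by 0.10 ± 0.00 (SD, n = 2) when KD1 was set against WT. GSK3B, the kinase that marks beta-catenin for degradation, read 2430 and 2360 in KD1, 2040 and 1730 in CON and 1470 and 1440 in WT, so that both KD1 values were above the others. Its log2 ratio was 0.37 ± 0.15 against CON and 0.70 ± 0.04 against WT (SD, n = 2), which did not pass (limma adjusted p = 0.387 and 0.152), and a second, dimmer GSK3B probe read -0.04 and 0.31 in KD1 vs WT. CTNNB1, which encodes beta-catenin, had a mean of 0.00 ± 0.20 (SD, n = 2) in KD1 vs CON with a 95% interval of -0.46 to 0.47, and -0.50 ± 0.25 in KD1 vs WT (limma adjusted p = 0.269). A dimmer CTNNB1 probe read -0.38 and -0.44 in KD1 vs CON, where the brightest read 0.14 and -0.14. NKD1, a Dishevelled-binding feedback inhibitor, was well above background on 1 of 8 readings in KD1 and on none in WT and CON, and read 6.06 to 7.36 in all extracts.

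Dishevelled proteins relay the signal from Frizzled receptors. DVL1 was lowest in CON, with signals of 14500 and 14700, against 36800 and 36700 in WT and 28200 and 28600 in KD1, and no culture overlapped another. It was higher in WT than in CON, by 1.29 and 1.30 in the replicates, or 2.45-fold (limma adjusted p = 0.0311), and a second DVL1 probe passed as well (1.13 and 1.37, limma adjusted p = 0.0397). In KD1 vs CON it read 0.89 and 0.98, short of the threshold (limma adjusted p = 0.0582), and in KD1 vs WT -0.45 and -0.36 (limma adjusted p = 0.335). The difference between WT and CON passed under 6 of 14 other settings and was lost with the replicate block (limma adjusted p = 0.0554). Without CON replicate 1, CON replicate 2, WT replicate 1 or WT replicate 2 the limma adjusted p was 0.386, 0.347, 0.142 and 0.125, with a log2 ratio of 1.29 or 1.30 each time. DVL1 lies near the end of the short arm of chromosome 1 (probe chr1:1260582-1260641, NCBI36), and the 51 expressed genes around it had a median log2 ratio of 0.33 where WT was set against CON and of 0.22 where KD1 was. In KD1, DVL2 read -0.14 ± 0.02 against CON and 0.07 ± 0.06 against WT, and DVL3 read 0.43 ± 0.23 and 0.50 ± 0.38 (SD, n = 2). None of these passed.

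The 3 tested nuclear factors stayed between -0.34 and 0.29 in the means of the KD1 comparisons, and between -0.01 and 0.09 in WT vs CON. LEF1 read 2960 and 3830 in KD1, 2620 and 4110 in CON and 2630 and 4350 in WT, so the replicates of each culture spanned more than the cultures did. Its mean log2 ratio was -0.05 for KD1 against CON (95% interval -0.51 to 0.42), -0.03 for KD1 against WT (-0.51 to 0.45) and -0.01 for WT against CON (-0.50 to 0.48). TCF7L1, mostly a repressor without Wnt signal, gave 0.29, 0.13 and 0.06 in the same order, and TCF7L2 -0.28, -0.34 and 0.09, none of which passed. TCF7 was dim, with 3 of 8 readings above background in WT, 1 in CON and none in KD1, and signals of 8.52 and 8.01, 5.58 and 7.36, and 5.07 and 5.21 in that order.

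SFRP4, a secreted Frizzled-related protein that binds Wnt ligands outside the cell, was the other member lower in KD1 than in CON. Its signal was 374 and 320 in CON, 118 and 173 in KD1 and 135 and 164 in WT, so that the KD1 and WT values overlapped and both CON values lay above them. The log2 ratios in KD1 vs CON were -1.70 and -1.0, a mean of -1.35 ± 0.49 (SD, n = 2), or 2.54-fold lower in KD1 (limma adjusted p = 0.0367). In WT vs CON they were -1.49 and -1.03 (limma adjusted p = 0.0572), and in KD1 vs WT -0.18 and 0.04 (limma adjusted p = 0.914). SFRP4 is at chr7:37913276-37913335 (NCBI36), and the 51 expressed genes around it had a median of -0.21 for KD1 and -0.05 for WT, each against CON. The call in KD1 vs CON was kept under 5 of 14 other settings and was the least stable of those in a KD1 comparison. It was lost with the replicate block (log2 ratio -1.34, limma adjusted p = 0.0703) and with normexp and loess (-0.65, 0.175). It was also lost without KD1 replicate 1 (log2 ratio -1.0, limma adjusted p = 0.206), CON replicate 1 (-1.0, 0.490), CON replicate 2 (-1.70, 0.116) and either WT replicate (-1.35, 0.0627). The difference between WT and CON passed without either KD1 replicate (limma adjusted p = 0.0221).

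Among the remaining antagonists none passed. SFRP1, a relative of SFRP4, read 4340 and 5830 in KD1, 8210 and 11400 in CON and 14800 and 8070 in WT, so that both KD1 values lay below all others. For KD1 it gave -0.96 and -0.94 against CON, and -1.75 and -0.45 against WT, and neither passed (limma adjusted p = 0.216 and 0.178). A second SFRP1 probe gave -0.92 and -0.89, and -1.66 and -0.30. FRZB, also a secreted Frizzled-related protein, read 189 and 205 in KD1, 64.5 and 49.8 in CON, and 261 and 78.1 in WT. In KD1 vs CON its log2 ratios were 1.52 and 2.13, or 3.54-fold, the largest mean of any tested member, but it did not pass (limma adjusted p = 0.0901). The WT replicates, which enter the same estimate of spread, were far apart. It passed without KD1 replicate 1 (limma adjusted p = 0.0233) and without either WT replicate (0.0438), and with floored signals and median centring (log2 ratio 1.60, 0.000127). With normexp and loess its log2 ratio was 0.58 (limma adjusted p = 0.356). In KD1 vs WT, FRZB read -0.48 and 1.40, and in WT vs CON 2.06 and 0.46.

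DKK3, a member of the Dickkopf family, gave opposite signs in the 2 replicates of every comparison. It read 3960 and 1120 in WT, 2540 and 2230 in CON and 1060 and 3330 in KD1. For KD1 the log2 ratios were -1.30 and 0.50 against CON, and -1.85 and 1.53 against WT, and for WT against CON they were 0.65 and -1.04, with limma adjusted p from 0.832 to 0.935. Both further DKK3 probes with signal showed the same split, with -1.47 and 1.35, and -1.60 and 1.60, in KD1 vs WT. DKK1, which blocks LRP5 and LRP6, read 1760 and 613 in CON and 1960 and 1940 in KD1, and its log2 ratios in KD1 vs CON were 0.16 and 1.59 (limma adjusted p = 0.282). KREMEN1, a receptor for Dickkopf proteins, differed by -0.48 ± 0.07 (SD, n = 2) in KD1 vs CON (limma adjusted p = 0.470). DKK2 and WIF1 were not well above background on any reading.

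**Figure D3:**
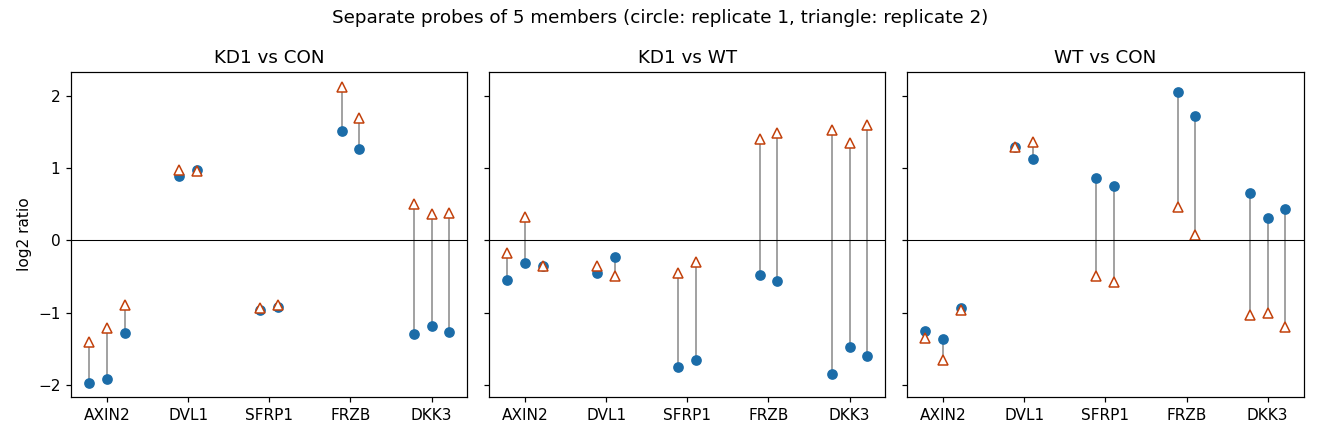
Log2 ratios of the separate probes with signal for 5 members, in order of brightness within a gene (circle replicate 1, open triangle replicate 2). The 3 AXIN2 probes and the 2 DVL1 probes keep their sign in both replicates of the comparisons with CON, while the 3 DKK3 probes change sign between replicates in all 3 comparisons.

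WNT3, a ligand of the canonical branch, was the member lower in KD1 than in WT. Its signal was 882 and 679 in KD1, 1300 and 1400 in CON and 2420 and 2110 in WT, and no culture overlapped another. In KD1 vs WT the log2 ratios were -1.51 and -1.60, a mean of -1.56 ± 0.07 (SD, n = 2), or 2.94-fold lower in KD1 (limma adjusted p = 0.0219). In KD1 vs CON they were -0.57 and -0.97, also below 0 but short of the threshold (limma adjusted p = 0.112; 95% interval -1.24 to -0.31), and in WT vs CON 0.82 and 0.59 (limma adjusted p = 0.163). The probe is at chr17:42196873-42196932 (NCBI36, minus strand), and the 51 expressed genes around it had medians for KD1 of -0.05 against WT and 0.08 against CON. The call in KD1 vs WT passed under 9 of 14 other settings. It was lost with the replicate block (log2 ratio -1.53, limma adjusted p = 0.051) and with normexp and loess (-1.41, 0.0873), and also without KD1 replicate 2 (log2 ratio -1.51, limma adjusted p = 0.0910), WT replicate 1 (-1.60, 0.143) and WT replicate 2 (-1.51, 0.115).

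The windows from 250 bases before to 50 bases after the transcription start are shown for SFRP4 and WNT3, which passed in a comparison with KD1 (a window of AXIN2 was not used here), because the fusion retains the DNA-binding domains of PAX3. Capitals mark the paired-domain letters (GTT followed by C or A and then by T or C) on either strand, and the sequences are from RefSeq on GRCh38.p14 (chr7:37916768-37917067 and chr17:46818643-46818942, both minus strand, printed 5′ to 3′ along the gene).
SFRP4: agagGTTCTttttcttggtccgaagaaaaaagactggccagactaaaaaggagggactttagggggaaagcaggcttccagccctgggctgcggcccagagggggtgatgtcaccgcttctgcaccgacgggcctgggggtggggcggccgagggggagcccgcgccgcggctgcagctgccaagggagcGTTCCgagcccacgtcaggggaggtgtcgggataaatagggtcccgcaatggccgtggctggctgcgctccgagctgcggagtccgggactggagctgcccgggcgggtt
WNT3: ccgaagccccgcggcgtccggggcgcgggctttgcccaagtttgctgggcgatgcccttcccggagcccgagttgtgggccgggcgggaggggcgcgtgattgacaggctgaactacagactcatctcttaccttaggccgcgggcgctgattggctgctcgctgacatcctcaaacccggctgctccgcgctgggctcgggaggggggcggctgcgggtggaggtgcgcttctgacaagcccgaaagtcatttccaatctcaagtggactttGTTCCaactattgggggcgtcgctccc
The SFRP4 window held 2 such matches and the WNT3 window 1. Of 35116 RefSeq windows of this length, 76.9% held at least 1, so a match is common. Neither window held the homeodomain letters ATTA (50.2% of all windows) or the TCF/LEF letters CTTTGA (12.9%), searched on both strands. Variants of the TCF/LEF letters, such as the CTTTGTT that the WNT3 window holds, were not searched or counted. The absence of CTTTGA therefore does not mean that the windows lack a TCF/LEF site. Of the 44 members, 29 had a window in the table, and 2 of their 37 windows held CTTTGA.

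The other ligands were either near background or did not pass. WNT5A, which acts mostly through beta-catenin-independent branches, read 332 and 321 in KD1, 524 and 462 in CON and 536 and 540 in WT. Both KD1 values were therefore below all others, at -0.59 and -0.48 (log2 ratio) against CON, and -0.69 and -0.60 against WT, but the test was not passed (limma adjusted p = 0.206 and 0.164). WNT5B read -1.67 and -0.11 in KD1 vs WT. WNT10B read -1.02 and -0.35 for KD1 against CON, with -0.38 and 0.55 against WT. WNT6, WNT4 and WNT11 differed in their means by -0.50 to 0.11 in KD1 vs WT. A dimmer WNT6 probe gave -1.91 and -0.15 there, where the brightest gave -0.16 and 0.39. All 5 ligands tested in KD1 vs CON had a mean below 0, from -0.77 to -0.04, beside 52.1% of all genes tested. WNT2 was not well above background on any reading. WNT2B was so on 2 of 8 in KD1 only, both in KD1 replicate 2, and its log2 ratios for KD1 were 0.02 and 0.67 against CON, and 0.42 and 1.18 against WT. WNT7B was so on 3 of 8 in CON and 2 in KD1, all in replicate 1, and on none in WT. It read 16.5 and 11.4 in KD1, 21.9 and 12.5 in CON and 10.9 and 15.2 in WT, so that CON was the higher in replicate 1 and WT in replicate 2. PORCN, the acyltransferase that Wnt ligands need for secretion, read 10800 and 14900 in KD1, 6960 and 5470 in CON and 9940 and 6710 in WT. For KD1 its log2 ratios were 0.70 and 1.45 against CON (2.11-fold, limma adjusted p = 0.0996), and 0.17 and 1.15 against WT (limma adjusted p = 0.273), and it passed in KD1 vs CON only without KD1 replicate 1 (log2 ratio 1.45, limma adjusted p = 0.0407). The 51 expressed genes around PORCN on chromosome X had medians of 0.22 and 0.21 in these comparisons. RSPO3, an agonist that stabilizes Wnt receptors, was well above background on 2 of 8 readings of each culture.

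The tested receptors, like most tested members, read higher in WT replicate 1 than in WT replicate 2. All 10 tested receptors and co-receptors had a mean below 0 in KD1 vs WT, from -1.40 to -0.03, beside 49.4% of all genes, but none passed there. For WT against CON the mean was above 0 for 9 of 10, where 53.5% of all genes were below 0. In replicate 1 of KD1 vs WT all 10 were below 0 with a median of -0.82, and in replicate 2 only 5 were, with a median of -0.12, while 46.3% and 52.6% of all genes tested were below 0 in these replicates. The signal of WT replicate 1 exceeded that of WT replicate 2 for all 10, by 0.18 to 0.84 on the log2 scale, beside 48.4% of all genes. The same held for 26 of the 35 tested members. By role it held for 5 of 7 ligands, 5 of 6 antagonists, 5 of 8 transducers and destruction complex genes and 0 of 3 nuclear factors. In CON and in KD1 replicate 1 was the higher for 3 of 10 receptors each, beside 51.8% and 53.1% of all genes. LRP6, the main Wnt co-receptor, is an example, with 1990 and 1340 in WT, 766 and 1010 in CON and 1130 and 1060 in KD1. It gave -0.90 and -0.36 in KD1 vs WT (limma adjusted p = 0.276), and for WT against CON 1.34 and 0.39 (limma adjusted p = 0.168). LRP5 read -0.96 and 0.09 in KD1 vs WT, and the 51 expressed genes around it on chromosome 11 had a median of -0.20 there and of -0.28 in KD1 vs CON, where LRP5 read -0.42 and -0.61.

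**Figure D4:**
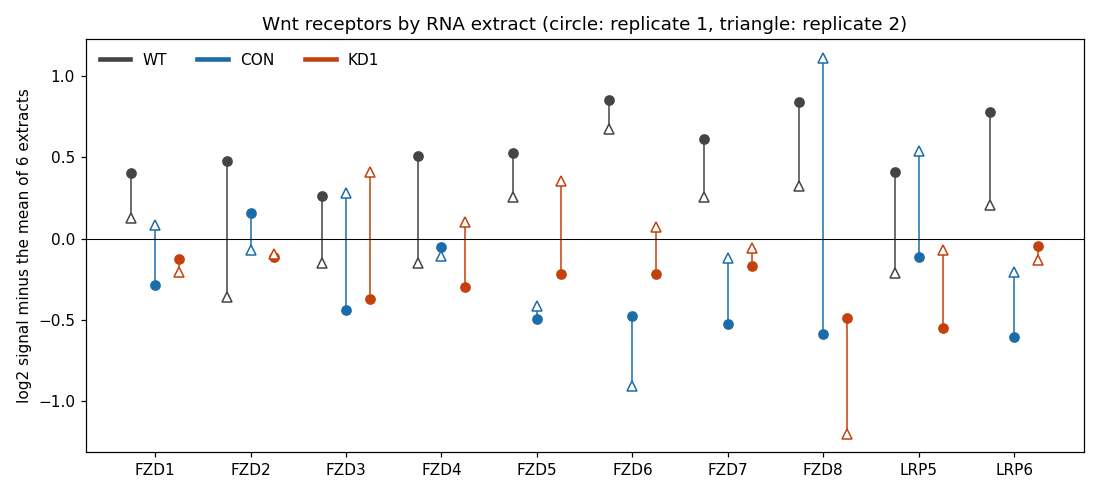
Log2 signal of the 10 tested receptors and co-receptors in each extract, minus the gene's mean over 6 extracts (circle replicate 1, open triangle replicate 2). WT replicate 1 lies above WT replicate 2 for every gene, FZD6 separates WT from CON in both replicates, and FZD8 spans the widest range between the CON replicates.

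FZD6, a Frizzled receptor with a role in planar cell polarity, was the receptor that passed. Its signal was 231 and 204 in WT, 91.5 and 68.3 in CON and 110 and 134 in KD1, and no culture overlapped another. In WT vs CON its log2 ratios were 1.37 and 1.72, or 2.91-fold (limma adjusted p = 0.0296). For KD1 they were -1.06 and -0.60 against WT (limma adjusted p = 0.143), and 0.27 and 0.83 against CON (limma adjusted p = 0.262), neither past the threshold. The call in WT vs CON passed under 6 of 14 other settings. It was lost with the replicate block (log2 ratio 1.49, limma adjusted p = 0.0684), with normexp and loess (0.71, 0.141), and without CON replicate 1, CON replicate 2, WT replicate 1 or WT replicate 2 (limma adjusted p = 0.183, 0.324, 0.146 and 0.133, with log2 ratios of 1.72 or 1.37). FZD8 read 799 and 489 in KD1, 744 and 2420 in CON and 2010 and 1400 in WT. Both KD1 values were below the WT values, with log2 ratios of -1.32 and -1.48 in KD1 vs WT (limma adjusted p = 0.248), while in KD1 vs CON they were 0.08 and -2.28 (limma adjusted p = 0.344). The CON replicates were far apart, and without CON replicate 1 FZD8 passed against WT (-1.40, limma adjusted p = 0.0413) as well as against CON (-2.28, limma adjusted p = 0.0170). Without CON replicate 2 the p-value in KD1 vs WT was also 0.0413, and without KD1 replicate 1 that in KD1 vs CON was 0.0449. FZD5 and FZD7 read 1.05 and 0.65, and 1.18 and 0.34, in WT vs CON, where the 51 expressed genes around each had medians of 0.27 and 0.29. FZD1, FZD2, FZD3 and FZD4 differed by -0.14 to 0.10 in the mean of KD1 vs CON, and FZD10 was not well above background on any reading.

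The further tested probes of the members had the sign of the brightest probe for 13 of 16 in KD1 vs CON, 16 of 20 in KD1 vs WT and 14 of 22 in WT vs CON. In WT vs CON the sign differed for a second probe of WNT6 (2.02 and 0.23, where the brightest gave 0.02 and -0.26), WNT11, FZD3, GSK3B, CTNNB1 and TCF7L2, and a further probe of FZD1 and of DVL3 had a mean of 0.00. The GSK3B probes were the pair whose replicates each held 1 sign there, with -0.49 and -0.28 for the brightest and 0.26 and 0.27 for the other. In KD1 vs WT the sign also differed for AXIN2 (-0.31 and 0.32 in a further probe), LEF1 (0.62 and -0.02) and WNT6, with a mean of 0.00 for a DKK3 probe, and in KD1 vs CON for DVL3 (-0.05 and 0.02), while the brightest CTNNB1 probe had a mean of 0.00. None of these probes passed in the comparison named.

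The mean of a member and the median of the genes around it had the same sign for 20 of 33 members tested in KD1 vs CON, 20 of 35 in KD1 vs WT and 23 of 35 in WT vs CON. Across the tested members, the member's mean log2 ratio correlated with the median of its 51 expressed neighbours with a Pearson's r of 0.45 and a Spearman's rho of 0.51 for KD1 against CON (33 members), 0.22 and 0.17 for KD1 against WT (35), and 0.39 and 0.41 for WT against CON (35). These are descriptions across genes of the same arrays; the window holds the member itself, and genes such as FZD5 and WNT6 share neighbours. The neighbour medians ranged from -0.29 to 0.30 in KD1 vs CON. There the 51 genes around AXIN2 had a median of -0.07 (AXIN2 itself -1.69), those around SFRP4 -0.21 (SFRP4 -1.35), those around WNT3 0.08 (WNT3 -0.77), those around DVL1 0.22 (DVL1 0.94) and those around FZD6 0.06 (FZD6 0.55). The part of the surrounding region in the members' differences was not tested.

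**Figure D5:**
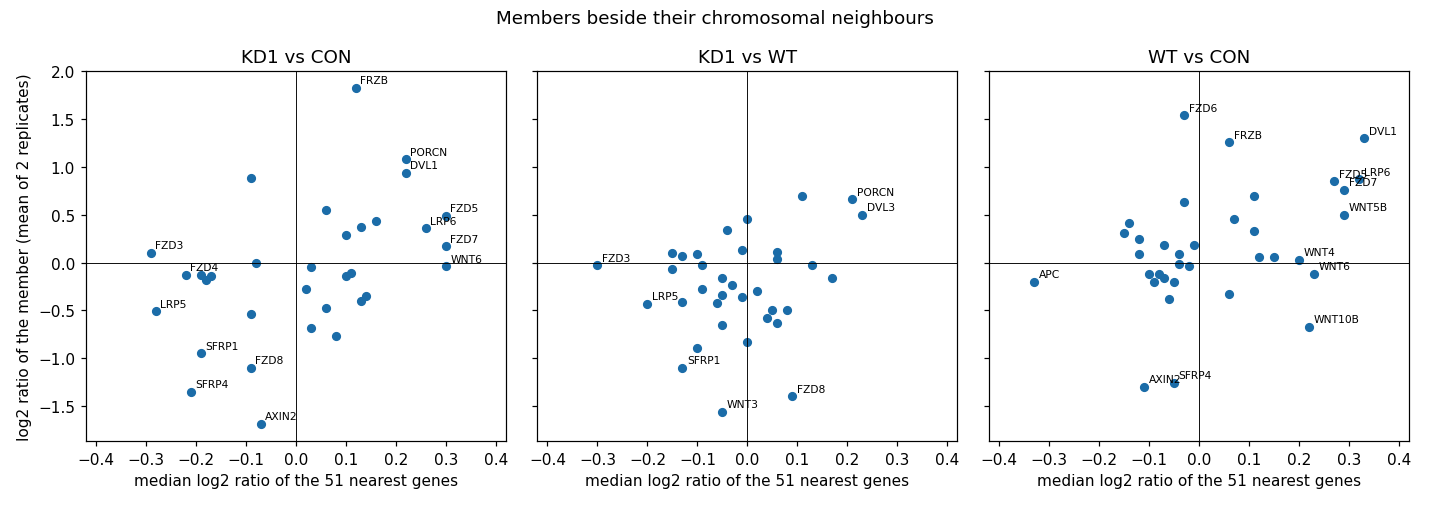
Mean log2 ratio of each tested member against the median log2 ratio of the 51 expressed genes centred on it, in the 3 comparisons. DVL1, LRP6, FZD5 and FZD7 lie at the right in WT vs CON with positive neighbour medians, while AXIN2, WNT3 and FZD6 lie far from 0 on the vertical axis with neighbour medians near 0. WNT10B and WNT6 also lie at the right in WT vs CON, but below 0 on the vertical axis.

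Other Wnt pathway genes were taken from a list of 79, of which 77 were on the array. In KD1 vs CON 45 were tested and none passed in limma, beside 1.06% of all genes lower and 0.85% higher. An unadjusted p under 0.05 was found for 8 of the 45, beside 17.3% of all genes. In KD1 vs WT 1 of 51 was lower (0.835% of all genes), and in WT vs CON 1 of 53 was lower (0.659%) and 1 higher (0.826%). NOTUM, a secreted deacylase that inactivates Wnt ligands, read 71.3 and 97.0 in KD1, 81.7 and 102 in CON and 186 and 200 in WT, so that WT stood above both clones. Its log2 ratios were -1.29 and -1.16 in KD1 vs WT (limma adjusted p = 0.0419), and 1.24 and 1.13 when WT was set against CON (limma adjusted p = 0.0429). AXIN2, like NOTUM a known feedback target of the canonical branch, ran the other way in WT vs CON. PRICKLE1, a planar polarity gene, had no reading well above background in WT, and CON exceeded it at least 2.32-fold (limma adjusted p = 0.0205). Of 14 listed target genes, 12 could be tested in KD1 vs CON and 13 in each of the others, and none passed. In KD1 vs CON the mean was below 0 for 6 of these target genes and above for 6, and in KD1 vs WT for 8 and 5. CCND1, the cyclin of the G1 phase, came to -1.30 and -1.28 in KD1 vs CON (limma adjusted p = 0.109), and SP5, a direct target, to 0.05 and -0.03. In KD1 vs WT the mean of CCND1 was -0.63, and it was lower in replicate 2 only. For KD1 against CON and against WT, MYC had means of 0.63 and 0.61 and VEGFA of 0.56 and 1.12, while BMP4 had -0.92 and -1.03.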

How the data were processed

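The authors deposited Agilent Feature Extraction 10.5.1.1 output with linear intensity values per spot: background-subtracted signals and processed signals after lowess within the array. The authors also deposited a log10 ratio of red over green, used only as a check, and a series table with the same ratios on the log2 scale. Here log2 ratios of the processed intensities were turned so that the culture named first is the numerator, averaged over spots without outlier flags, and averaged over the dye-swap pair. A probe was tested in a comparison if, on each of its arrays, the red or the green signal exceeded the 99th percentile of 153 negative controls. limma 3.58.1 in R 4.3.3 was fitted to 6 replicate values, 1 coefficient for each comparison, residual degrees of freedom set to 2 because the comparisons share extracts (a fit to extract levels, where they were not set, is an alternative), and Benjamini-Hochberg adjustment at 0.05 over all probes tested; the fit was tested on simulated data. Signals per extract are means of separate-channel values after Aquantile normalization and are compared within a probe only. A lower bound of a fold was computed against the background limit where a culture had no reading well above background. The number of arrays limits the precision.

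Each replicate of the KD1 arrays had its own slide, and WT vs CON another, so each replicate value of a KD1 comparison is also its value within a slide. Neighbours were 51 expressed genes on NCBI36 positions of the files. All 44 members are named; values by replicate are given for members that passed a test, reached 2-fold in a mean or were above background in some cultures only. The members, the lists and the tests were chosen with earlier results of these data known. The alternatives were normexp with an offset of 50 and loess, floored signals with median centring, the series table, fits to extract levels with and without a replicate block, other filters on dim probes, the mean over probes, and each extract or replicate left out.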

Additional observations from a re-analysis of the deposited data

How the results depend on the processing

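The authors' series table and the stricter filter (well above background in both channels of every array) changed no call among the 103 and 102 member results tested, and no called member changed sign under any alternative. The series table holds the same ratios, and the filter leaves the ratios unchanged. Neither is therefore an independent check of the calls, though both count among the 14 other settings. With normexp and loess no member passed in any comparison, and the probes that passed were 26 for KD1 against CON, 1 for KD1 against WT and 2 for WT against CON, where 393, 261 and 365 were reported. With floored signals and median centring 1015, 959 and 1025 probes passed, 5 members were lower and 1 higher for KD1 against CON, 2 lower for KD1 against WT, 2 lower and 2 higher in WT vs CON, and the study's selection took 2 members, WNT3 and FZD8. Without a filter on dim probes 254, 183 and 200 probes and 1, 1 and 0 members passed. With the mean over probes AXIN2 was lost in WT vs CON (limma adjusted p = 0.0504), leaving 0 lower there.

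The fit to extract levels with culture and a replicate block gave 161, 107 and 131 probes, 1 lower member for KD1 against CON (AXIN2), 0 for KD1 against WT and 0 lower and 0 higher in WT vs CON. With no replicate block, on separate channels, 201, 126 and 114 probes passed, with 1 lower member for KD1 against CON, 1 for KD1 against WT, and 0 lower and 1 higher in WT vs CON. Deviations of extracts with the same replicate number correlated at -0.021 for WT and CON, -0.072 for WT and KD1 and 0.541 for CON and KD1 over 21870 probes, so the numbers did not pair all cultures.

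With each extract left out in turn, 114 to 462 probes passed for KD1 against CON, 21 to 531 for KD1 against WT and 4 to 946 for WT against CON. Members passing ranged from 0 to 2 lower and 0 to 2 higher in KD1 against CON, 0 to 2 lower in KD1 against WT, and 0 to 2 lower and 0 to 2 higher in WT vs CON. Where an extract was left out, its comparisons rest on 1 value whose spread is assumed to be that of the others. The study's selection took 0 to 3 members: PORCN, FZD8 and FRZB without replicate 1 (3.11% of all genes), DKK3 without replicate 2 (1.61%), FZD8 without CON replicate 1, and PORCN and FRZB without WT replicate 1. The causes of these changes were not tested. With 2 replicates a comparison, members near background and those whose replicates disagree, such as DKK3 and FZD8, remain undecided.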

Other observations

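Groucho-family co-repressors, which bind LEF/TCF factors in the absence of a Wnt signal, differed among themselves. TLE4 read 2210 and 1930 in KD1, 4360 and 4240 in CON and 3770 and 4040 in WT, so that both KD1 values lay below all others. Its log2 ratios were -0.93 and -1.12 in KD1 vs CON (limma adjusted p = 0.0521) and -0.74 and -1.03 in KD1 vs WT (limma adjusted p = 0.0978), neither past the threshold. The 51 expressed genes around TLE4 on chromosome 9 had a median for KD1 of -0.40 against CON (44 of them below 0) and -0.43 against WT (40 below 0). The window around TLE1 overlaps almost wholly with that of TLE4, so its equal medians are not a second observation. The part of this region in the values of TLE4 and TLE1 was not tested. TLE1 read -1.06 and -0.96 in KD1 vs WT (limma adjusted p = 0.142), and TLE2 -1.49 and -0.40 in KD1 vs CON (limma adjusted p = 0.452) with -1.73 and 1.07 in KD1 vs WT (limma adjusted p = 0.819). TLE3 lay above 0, with 0.39 and 0.79 in KD1 vs CON (limma adjusted p = 0.201) and 0.18 and 0.41 in KD1 vs WT (limma adjusted p = 0.505). VANGL1, a planar polarity gene, read 5680 and 3520 in WT against 2350 and 3100 in CON and 2330 and 2080 in KD1, with log2 ratios of -1.21 and -0.85 in KD1 vs WT (limma adjusted p = 0.116).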
